A study of Mus musculus with 5 samples.

Results

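The genes described here make and trim signalling peptides, together with 1 such peptide and its receptor: Pam, Cpe, Cpd, Pcsk5, Pcsk7 and Furin are processing enzymes, Npy encodes neuropeptide Y, and Npy1r encodes its Y1 receptor. They are 8 of 12393 genes with a symbol of their own on the arrays, read by 17 of 22626 probe sets other than array controls, and all 8 names matched. The group was put together after a low Pam and a high Npy had been seen in the double-null joints, so the differences of Pam and Npy are given as descriptions with no p-value, and nothing is supported with them. The other 6 genes were added with the same comparison known.

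RNA came from whole tibio-femoral joints of male mice 3 months old on a C57/Bl6:129 hybrid background. The double-null group had 3 pools lacking both epiphycan (Epyc) and biglycan (Bgn), small leucine-rich proteoglycans of cartilage and other connective tissue, and the wildtype group had 2 pools. Each pool joined 6 joints of 3 mice and was read on 1 Affymetrix array, so a replicate is a pool and the spread between single animals is not seen. Double-null pool 3 and wildtype pool 2 were deposited in 1 table, called array type A here, and double-null pools 1 and 2 and wildtype pool 1 in the other, called array type B. The labels do not say what else differed between the tables.

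Signalling peptides are cut out of larger precursors on their way through the secretory pathway. Convertases such as furin cut after basic residues, carboxypeptidases remove the basic residues left at the new end, and peptidylglycine alpha-amidating monooxygenase, the product of Pam, turns a terminal glycine into an amide that many peptides need for activity. Neuropeptide Y is one of these amidated peptides, is released with noradrenaline by sympathetic nerves, and is also made by other cells, among them bone cells and, in some mouse strains, megakaryocytes. Its Y1 receptor is found on osteoblasts and on vessels.

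Signals are MAS5 intensities on a linear scale, and 27 Bacillus control probe sets with no mouse target give the background. The highest of these controls read 27.5 to 63.5 on the 5 arrays. Bgn read 211 ± 11.1 in the double-null pools and 2708 ± 997 in the wildtype pools on its least reduced probe set (mean ± SD, n = 3 and 2), a log2 difference of -3.48 with limma adjusted p = 0.0034, and Epyc read 5.17 ± 5.02 in the double-null pools and 85.0 ± 8.79 in the wildtype pools (-1.64, adjusted p = 0.16). The arrays carried the labelled tissue: 8 of 9 cartilage markers, 6 of 6 osteoblast and osteocyte markers and 8 of 8 skeletal muscle markers lay above the highest Bacillus control on all 5 arrays. All differences below are log2(signal + 32) after quantile normalisation, double-null minus wildtype, with array type as a term. Adding 32 makes the differences of dim probe sets smaller. Because whole joints were used, fewer cells of a type and less RNA per cell cannot be told apart. The number of arrays limits the precision of every value.

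Pam, the amidating enzyme, was lower in every double-null pool. Its single probe set (1418908_at) read 174, 226 and 187 in double-null pools 1 to 3, against 638 and 418 in wildtype pools 1 and 2. The groups did not overlap, and the lower wildtype pool still read above the highest double-null pool. The means were 196 ± 27.1 in the double-null pools and 528 ± 156 in the wildtype pools (SD, n = 3 and 2), and the log2 difference was -1.31 ± 0.19 (SE), or 0.403-fold. Within array type A it was -1.05, and within type B -1.51. The wildtype pools lay further apart from each other than the double-null pools did.

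Npy showed the opposite pattern and was higher in every double-null pool. Its single probe set (1419127_at) read 562, 515 and 449 in double-null pools 1 to 3, against 243 and 246 in wildtype pools 1 and 2. The wildtype pools were almost equal, and the lowest double-null pool lay well above both. The means were 509 ± 56.7 in the double-null pools and 245 ± 2.24 in the wildtype pools (SD, n = 3 and 2), a log2 difference of 0.95 ± 0.15 (SE), or 1.94-fold. Within array type A it was 0.81, and within type B 1.06. Among all 22626 differences Pam stood 17th from the low end and Npy 81st from the high end, which describes how they came to be chosen.

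The stretch before the start of Npy is shown because this is the peptide gene that the group is built around. It covers the 250 bases before the RefSeq start (GRCm38.p6, chr6:49822460-49822709, plus strand), and capitals mark a CCAAT box and a GC box.
Npy: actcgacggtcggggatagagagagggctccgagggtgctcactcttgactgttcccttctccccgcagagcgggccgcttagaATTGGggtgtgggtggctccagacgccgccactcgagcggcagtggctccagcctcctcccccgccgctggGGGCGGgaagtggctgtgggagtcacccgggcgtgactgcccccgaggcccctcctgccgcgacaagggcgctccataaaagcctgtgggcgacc
Searching both strands found CCAAT 1 time, 166 bases before the start and on the minus strand, and GGGCGG 1 time, 95 bases before it; the matches do not overlap. CCAAT is present in 33.8% and GGGCGG in 32.7% of 32851 RefSeq start windows of this length. TATAAA (12.4% of windows) and TGACG (17.8%) were not among the letters of this window. It held 21 CG dinucleotides, against a median of 6. The arrays do not measure this stretch, and a match of letters is not a bound site.

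**Figure D1:**
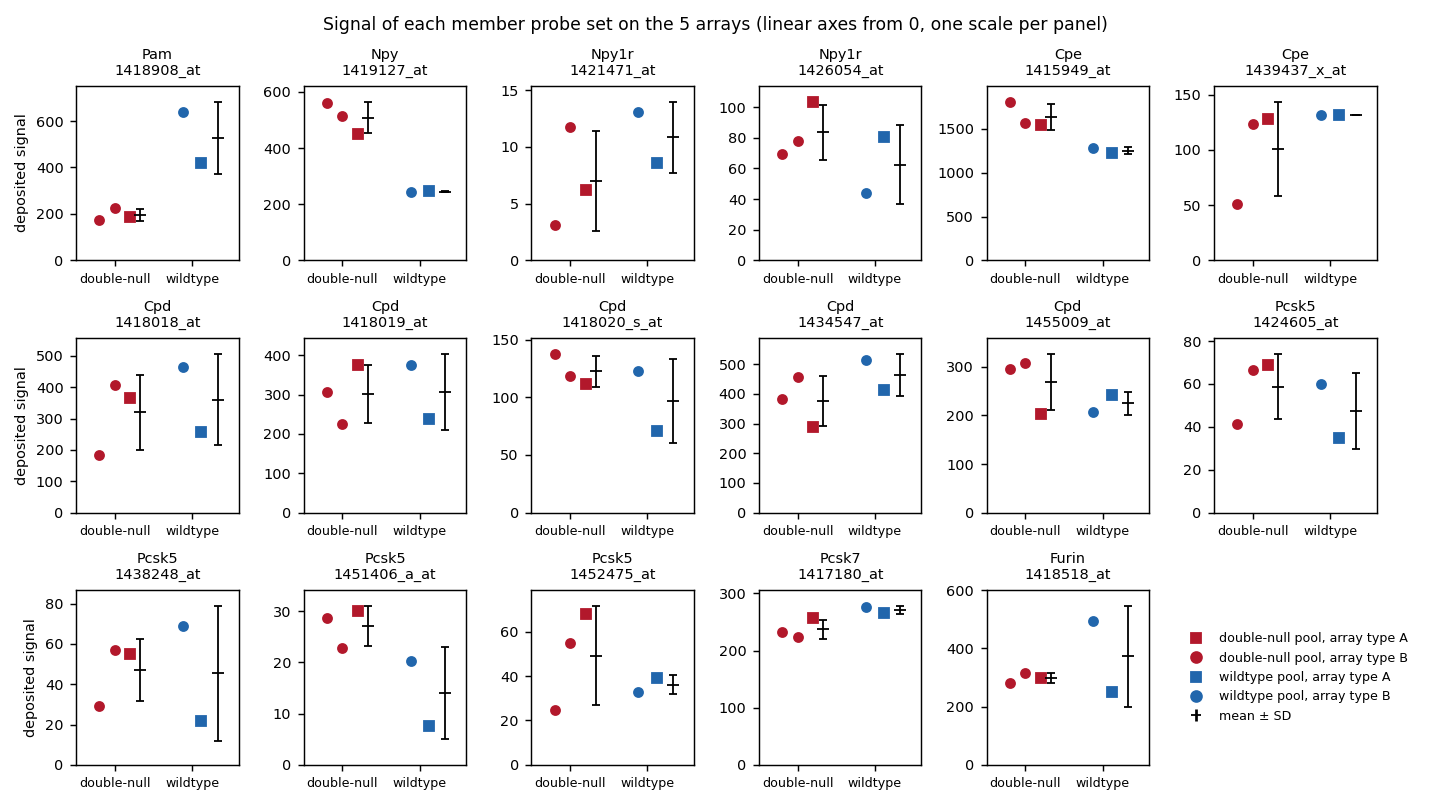
Deposited signal (vertical axes, linear from 0, a separate scale per panel) of the 17 probe sets of the 8 genes in 3 double-null pools (red) and 2 wildtype pools (blue), with squares for array type A, circles for array type B and bars for mean ± SD. Pam sits at 174 to 226 in the double-null pools and at 418 to 638 in the wildtype pools, Npy at 449 to 562 in the double-null pools and 243 to 246 in the wildtype pools, and most other panels overlap.

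The Y1 receptor gene Npy1r had 2 probe sets, and only 1 of them gave a signal over background. Probe set 1426054_at read 69.2, 77.9 and 104 in double-null pools 1 to 3, against 44.1 and 80.5 in wildtype pools 1 and 2. The groups overlapped, since wildtype pool 2 lay above both double-null pools of array type B. The log2 difference was 0.43 with a 95% interval of -0.08 to 0.94 (limma adjusted p = 0.92). The other, 1421471_at, read 3.08 to 11.8 in the double-null pools and 8.60 to 13.1 in the wildtype pools, below the highest Bacillus control on all 5 arrays, so it gives no level for the receptor.

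Cpe encodes carboxypeptidase E, the enzyme of dense-core granules that trims basic residues from peptides such as neuropeptide Y. Probe set 1415949_at read 1812, 1566 and 1544 in double-null pools 1 to 3, against 1284 and 1224 in wildtype pools 1 and 2. Every double-null pool lay above both wildtype pools, by a small margin. The means were 1641 ± 149 in the double-null pools and 1254 ± 42.4 in the wildtype pools (SD, n = 3 and 2), and the log2 difference was 0.32 ± 0.13 (SE), with a 95% interval of 0.01 to 0.64 and limma adjusted p = 0.91 over all probe sets. The array types gave 0.34 (A) and 0.31 (B). The second probe set, 1439437_x_at, whose suffix marks probes that may match other transcripts, lay on the other side: 51.2, 123.6 and 127.6 in double-null pools 1 to 3, against 132 and 132 in wildtype pools 1 and 2. Double-null pool 1 alone was far from the rest, and the log2 difference of -0.27 (95% interval -0.96 to 0.42, adjusted p = 0.98) was -0.05 without that pool.

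Cpd encodes carboxypeptidase D, a membrane enzyme of the trans-Golgi network with the same trimming activity. Its 5 probe sets all read above the highest Bacillus control on every array, and their differences did not share a sign: 3 were positive and 2 negative, from -0.36 to 0.26. The brightest, 1434547_at, read 382, 457 and 288 in double-null pools 1 to 3, against 514 and 414 in wildtype pools 1 and 2. The groups overlapped, and the log2 difference was -0.36 (95% interval -0.75 to 0.02, limma adjusted p = 0.92). Probe sets 1418018_at, 1418019_at and 1418020_s_at are annotated to 1 transcript record and so are not separate measurements of the gene. Nevertheless their double-null pool 1 values stood differently: it was the lowest of the 5 arrays on 1418018_at, at 184, and the highest on 1418020_s_at, at 138. Within array type A the differences were 0.47 on 1418018_at, 0.60 on 1418019_at and -0.23 on 1455009_at, and within type B they were -0.66, -0.45 and 0.51 in that order. The arrays thus gave no common direction for Cpd.

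Pcsk5 encodes a convertase that also cuts integrin and growth factor precursors. Its 4 probe sets had mean signals of 21.8 to 54.2, and 0 of them lay above the highest Bacillus control on all 5 arrays. All 4 differences were positive, from 0.06 to 0.37. The brightest, 1424605_at, read 41.1, 66.6 and 68.6 in double-null pools 1 to 3, against 60.0 and 34.7 in wildtype pools 1 and 2. The groups overlapped (log2 difference 0.23, 95% interval -0.34 to 0.80, limma adjusted p = 0.98). Only 1451406_a_at kept the groups apart, at 22.7 to 30.0 in the double-null pools and 7.63 to 20.3 in the wildtype pools, and these values lie within or near the range of the controls. The level of Pcsk5 was therefore hardly measurable in whole joints.

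Pcsk7, which encodes a convertase of the trans-Golgi network and the cell surface, varied least across the arrays of the 17 probe sets. Probe set 1417180_at read 233, 223 and 256 in double-null pools 1 to 3, against 276 and 266 in wildtype pools 1 and 2. All double-null pools lay below both wildtype pools, but the highest and the lowest array differed by only 1.24-fold. The log2 difference was -0.14 with a 95% interval of -0.53 to 0.25 (limma adjusted p = 0.99).

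Furin encodes the convertase that most cells carry and that activates many matrix proteases and growth factors. Probe set 1418518_at read 281, 317 and 298 in double-null pools 1 to 3, against 495 and 250 in wildtype pools 1 and 2. The 3 double-null pools lay close together and between the wildtype pools. The log2 difference of -0.28 (95% interval -0.83 to 0.27, limma adjusted p = 0.96) rests on wildtype pool 1: it was 0.22 without that pool, which leaves the contrast of array type A, and -0.66 within type B.

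Over all 17 probe sets 10 differences were positive and 7 negative. Of the 17, 0 passed the threshold of 0.05 in the fit of all probe sets, where 0.0265% of 22626 did. With only the brightest probe set of each gene and dim genes left out, 6 of the 8 genes were tested and 1 of them, Pam, passed, where 0.121% of 7436 genes did. Pam was chosen on this comparison, so nothing is read from that call. Among the 15 probe sets of the other 6 genes the lowest limma adjusted p was 0.91, 1 had an unadjusted p under 0.05 (Cpe 1415949_at) where 5.35% of all probe sets did, and 4 kept the groups apart where 19.2% of all probe sets did. The shares are those of the whole table. The difference had the same sign on both array types for 11 of the 17 probe sets, where 48.2% of all probe sets did.

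**Figure D2:**
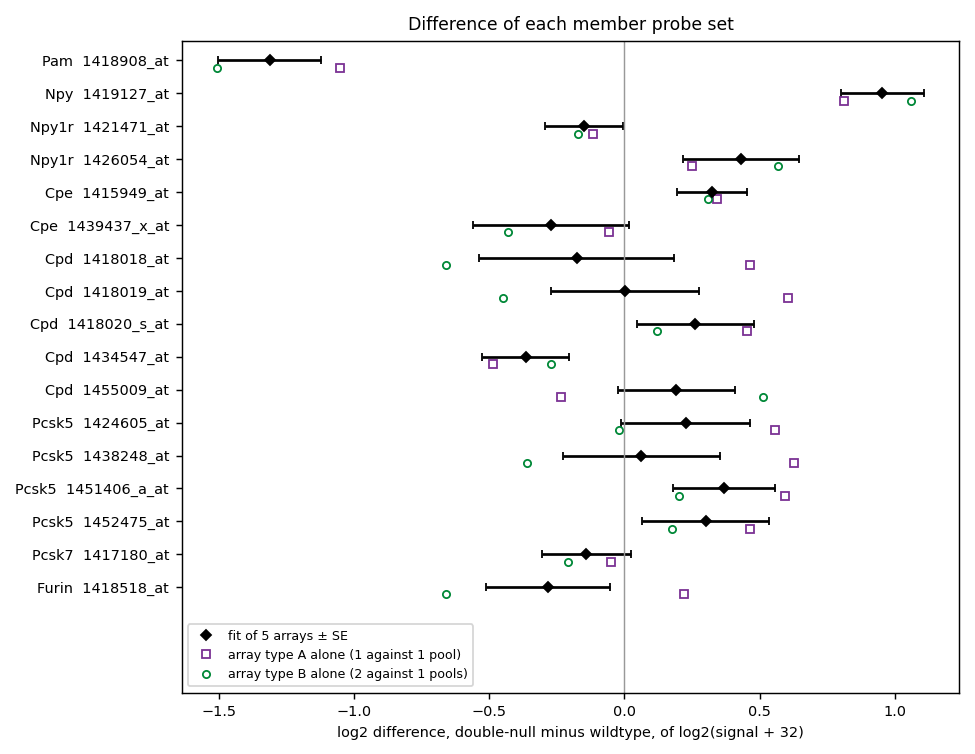
Log2 difference, double-null minus wildtype (horizontal axis), of the 17 probe sets in the fit of 5 arrays (black, ± SE) and on array type A (squares, 1 against 1 pool) and array type B (circles, 2 against 1 pools) alone. Pam at -1.31 and Npy at 0.95 lie outside the range of the others, which run from -0.36 to 0.43, and on several Cpd and Pcsk5 probe sets and on Furin the array types fall on opposite sides of 0.

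Likeness to the Pam and Npy profiles was measured as the root mean square difference of the 5 normalised log2 values, each gene set to a mean of 0, over 7435 other genes. For Npy the nearest genes were Fbln7 (0.097), which encodes the matrix adhesion protein fibulin 7, Vcan (0.11), which encodes the proteoglycan versican, and Htra1 (0.12), which encodes a secreted serine protease. The median over all genes was 0.52. Vcan read 218, 224 and 163 in double-null pools 1 to 3, against 108 and 94.3 in wildtype pools 1 and 2. For Pam the nearest were Slc38a1 (0.24), which encodes a glutamine transporter, Dok2 (0.29), which encodes a docking protein of blood cell signalling, and Adat2 (0.29), which encodes a tRNA deaminase, where the median was 0.67. Slc38a1 read 278, 332 and 331 in double-null pools 1 to 3, against 669 and 482 in wildtype pools 1 and 2. No gene came as near to Pam as the 3 genes came to Npy. The measure is not scaled, and the root mean square of the member's own profile was 0.65 for Pam and 0.49 for Npy. The distances of the 2 members are therefore not directly comparable. The profiles hold the contrast on which Pam and Npy were chosen, so genes with a similar difference come out as near. Shared regulation was not tested.

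**Figure D3:**
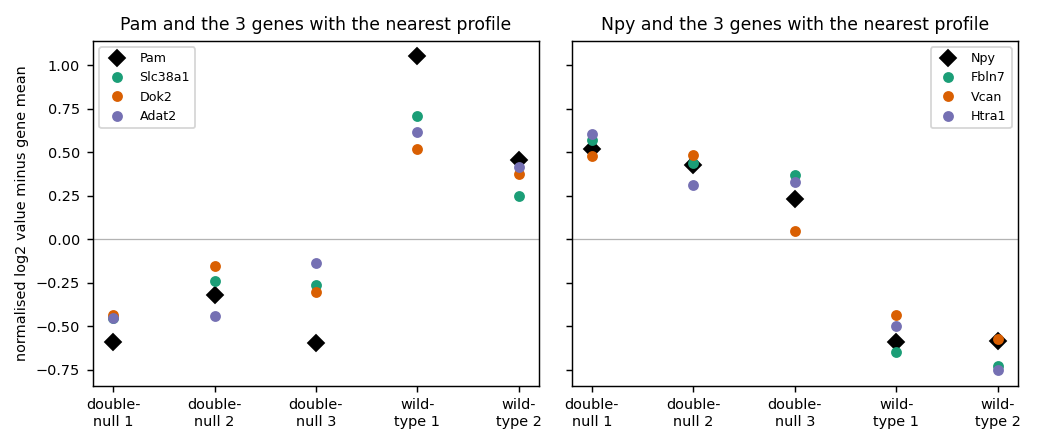
Normalised log2 value minus the gene's mean (vertical axis) in 3 double-null and 2 wildtype pools for Pam and its 3 nearest genes (left) and Npy and its 3 nearest genes (right). Pam and its neighbours are low in the double-null pools and highest in wildtype pool 1, and Npy and its neighbours lie above their means in every double-null pool (Vcan by only 0.05 in pool 3) and below them in both wildtype pools.

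The rest of the peptide pathway was followed in 10 lists of 118 genes, of which 100 were measured. In the fit of all probe sets 0 of the 100 passed in either direction (limma), where 0.0161% of 12393 genes did. At an unadjusted p under 0.05 there were 11 of the 100, against 672 of the 12393. With dim genes left out 0 of 31 passed. The median log2 difference was 0.01 over the 100 genes and -0.01 over all genes. Only 48 of the 100 lay above the highest Bacillus control on all 5 arrays.

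Among the other convertases and their granule partners 4 of 6 measured genes had positive differences, with a median of 0.04. Pcsk6, a convertase of matrix-bound growth factors, read 245, 295 and 238 in double-null pools 1 to 3, against 429 and 295 in wildtype pools 1 and 2 (log2 difference -0.46, limma adjusted p = 0.90). Its groups overlapped on the normalised scale. Mbtps1, the site-1 protease of the Golgi, was at 0.15 with its other probe sets at 0.25 and 0.32, and Pcsk1n, the inhibitor proSAAS, was at 0.62 with a signal over background on only 2 of 5 arrays.

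Of 9 measured metallocarboxypeptidases 6 had positive differences, with a median of 0.12, and 2 relatives that lack known trimming activity stood highest. Aebp1, a carboxypeptidase-like protein of collagenous matrix, read 309, 282 and 289 in double-null pools 1 to 3, against 169 and 203 in wildtype pools 1 and 2. The groups were apart, the log2 difference was 0.62 ± 0.17 (SE, adjusted p = 0.79), and the gene's other probe set was at 0.94. Cpxm2, another carboxypeptidase-like protein, read 84.5, 85.8 and 106 in the double-null pools, against 50.0 and 55.0 in the wildtype pools (0.62, adjusted p = 0.84), with its other probe set at 0.25. Cpa3, the carboxypeptidase of mast cells, was at 0.19 with overlapping groups.

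Enzymes that trim or degrade finished peptides had 10 positive and 4 negative differences, with a median of 0.13. Mme, encoding neprilysin, read 186, 206 and 158 in double-null pools 1 to 3, against 126 and 106 in wildtype pools 1 and 2 (log2 difference 0.53, limma adjusted p = 0.88), with its other probe set at 0.18. Fap, encoding the fibroblast activation protein, read 1770, 1556 and 1559 in the double-null pools, against 1245 and 1218 in the wildtype pools (0.34, adjusted p = 0.90). Dpp4, encoding the peptidase that shortens neuropeptide Y to a form the Y1 receptor binds poorly, read 102, 94.8 and 90.0 in the double-null pools, against 67.9 and 74.0 in the wildtype pools (0.35, adjusted p = 0.94), with its other probe set at 0.38. In each of these 3, named for their small p, the groups were apart, and none passed the test. Of the 14 measured genes 4 kept the groups apart, against 2445 of all 12393 genes, so nothing is read from it.

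Amidation needs copper and ascorbate, and 4 of 5 genes of their supply had positive differences, with a median of 0.28. With double-null pool 1 left out that median was 0.17. With wildtype pool 1 left out, which leaves only the contrast of array type A, it was -0.02. The positive median was thus not seen on array type A alone. Slc23a2, an ascorbate transporter, was at 0.30 with its other probe set at 0.10, and Cyb561, a cytochrome that regenerates ascorbate in granules, was at 0.29. The copper importer gene Slc31a1 was at 0.28 with overlapping groups and with its other probe set at 0.06. Their adjusted p ran from 0.94 to 0.96. None of the 5 stood as low as Pam.

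Precursors of amidated peptides, the substrates of Pam, had 6 positive and 18 negative differences, with a median of -0.10, and only 7 of the 24 lay above the highest Bacillus control on all 5 arrays. Adcyap1, which encodes the peptide PACAP, read 48.8, 49.2 and 16.9 in double-null pools 1 to 3, against 63.4 and 78.1 in wildtype pools 1 and 2 (log2 difference -0.59, limma adjusted p = 0.92) and its size differed between array types A (-1.20) and B (-0.13). Adm, encoding adrenomedullin, and Vip, encoding vasoactive intestinal peptide, were at -0.54 and -0.29. For either gene 0 of the 5 arrays read above the highest Bacillus control, and for Adcyap1 only 3 of the 5 did. Precursors without a terminal amide had 4 positive and 7 negative differences, with a median of -0.22 and 2 of 11 above the controls on all arrays. The lowest p values there belonged to Nts, encoding neurotensin (-0.55), Cartpt (-0.61) and Ghrl, encoding ghrelin (-0.44), with adjusted p of 0.80 to 0.92. Nts read above the highest Bacillus control on only 1 of the 5 arrays, Ghrl on 3 and Cartpt on 4.

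Of 4 measured dense-core granule proteins 0 lay above the highest Bacillus control on all 5 arrays, though Scg2 did on 4 and Chga on 2. All 4 differences were positive, at a median of 0.32, which was 0.09 without double-null pool 3 or wildtype pool 2 and 0.19 without double-null pool 1. Scg2 was at 0.49, Chga at 0.48 and Chgb at 0.16, all with overlapping groups.

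Among the other receptors of the neuropeptide Y family 2 differences were positive and 2 negative, with a median of -0.01. Npy4r alone lay above the controls on all 5 arrays, at 77.4 ± 19.5 in the double-null pools and 85.7 ± 14.4 in the wildtype pools (SD, n = 3 and 2). Npy2r and Npy6r read below the highest control on every array. Of 12 receptor genes for other amidated peptides 6 were positive and 6 negative, with a median of 0.00. Ramp3, a subunit of adrenomedullin receptors, was at -0.39, Grpr, the receptor of gastrin-releasing peptide, at -0.28 with its other probe set at -0.0028, and Adcyap1r1, the PACAP receptor, at -0.58 with its other probe set at 0.07.

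Proteins that convertases are known to activate in joint matrix and signalling had 6 positive and 5 negative differences, with a median of 0.05. Igf1r, the receptor of insulin-like growth factor 1, was at -0.44, and its other probe set was at -0.01. Adamts5, an aggrecanase, was at -0.49 on 1 probe set and 0.02 on the other. Vegfc, a lymphatic growth factor, was at 0.51 with a signal over background on only 3 of 5 arrays. The limma adjusted p of Igf1r, Adamts5 and Vegfc ran from 0.88 to 0.91.

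**Figure D4:**
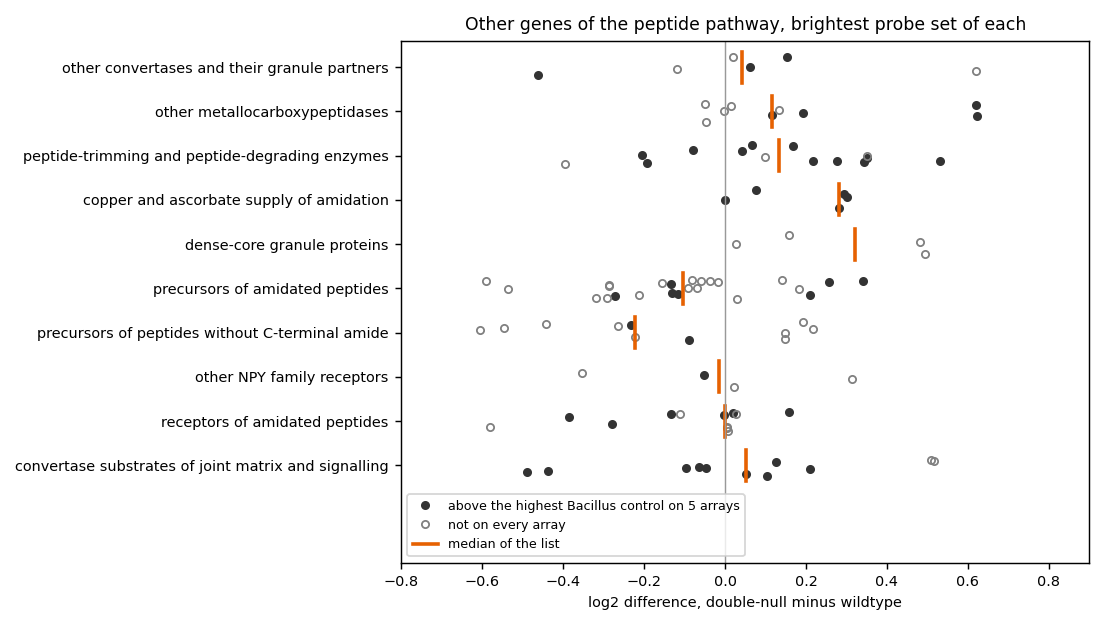
Log2 difference, double-null minus wildtype (horizontal axis), of 100 pathway genes in 10 lists, each gene by its brightest probe set, with filled points for genes above the highest Bacillus control on 5 arrays, open points for the others and orange bars for list medians. The values run from -0.61 to 0.62, and the medians from -0.22 to 0.32.

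Markers of several cell types were measured beside these genes, and their part in the differences was not tested. Of 8 tendon and fibroblast markers 8 had positive differences, with a median of 1.01, and 0 passed the threshold. They ran from Pdgfra at 0.28 (limma adjusted p = 0.92) to Col3a1 at 1.46 (adjusted p = 0.27), and the groups of Scx overlapped. Of the 8, 7 lay above the highest Bacillus control on all 5 arrays, and their summed signal was 13624 to 15484 in the double-null pools and 6119 to 6255 in the wildtype pools. The median was 0.85 within array type A and 1.17 within type B. Npy, Cpe 1415949_at, Aebp1, Fap and Mme read above both wildtype pools in the same double-null pools, and Pam and Cpe 1439437_x_at read below them. These genes are named after their values were seen, and 19.2% of all probe sets kept the groups apart in either direction. A link between them and the fibroblast markers was not tested. Of 7 osteoclast markers listed 5 were measured and 5 of 5 were negative, at a median of -0.25, with sums of 7224 to 8113 in the double-null pools and 7599 to 12624 in the wildtype pools. Adipocyte markers had sums of 3223 to 3336 in the double-null pools and 3819 to 3862 in the wildtype pools, with 2 of 5 differences positive. Among them only Fabp4 kept the groups apart, at 1968 ± 68.4 in the double-null pools and 2564 ± 23.5 in the wildtype pools. Adipoq read 1001 ± 165 and 917 ± 40.5 in that order, so the lower sums rest on Fabp4.

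Of 12 neuron and axon markers 3 lay above the highest Bacillus control on all 5 arrays, and their summed signal was 437 to 604 in the double-null pools and 543 to 547 in the wildtype pools, which overlapped. Tubb3, Nefl, Nefm and Snap25, which define neurons, read below the highest control on every array. Th, the first enzyme of noradrenaline synthesis, read 47.7, 34.6 and 88.5 in double-null pools 1 to 3, against 57.4 and 46.5 in wildtype pools 1 and 2. Dbh, the enzyme that finishes noradrenaline in sympathetic nerves, read 113, 149 and 149 in the double-null pools, against 190 and 168 in the wildtype pools. Of the 12 markers 7 had positive and 5 negative differences, with a median of 0.03 and 0 past the threshold. They ran from Dbh at -0.29 (limma adjusted p = 0.94) to Gap43 at 0.43 and Stmn2 at 0.60. The groups of Dbh were apart, and those of Gap43 and Stmn2 overlapped. Dbh read above the highest Bacillus control on all 5 arrays, but Stmn2 on only 3 and Gap43 on only 2. The part of nerve in the Npy difference was not tested. Schwann cell markers had sums of 1200 to 1781 in the double-null pools and 892 to 1440 in the wildtype pools.

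Megakaryocyte markers, which in some strains accompany Npy, lay above the highest Bacillus control on all 5 arrays for 6 of 6 measured genes. Their summed signal was 12524 to 14319 in the double-null pools and 12379 to 12497 in the wildtype pools. Every double-null sum thus lay above both wildtype sums, the lowest only just, while the groups of each single marker overlapped. Of the 6 differences 5 were positive, with a median of 0.10, and the part of megakaryocytes in the Npy difference was not tested. Mast cell markers had sums of 826 to 1102 in the double-null pools and 895 to 946 in the wildtype pools, which overlapped. The osteoblast and osteocyte sums, 15692 to 20959 in the double-null pools and 15027 to 23596 in the wildtype pools, overlapped as well, with 2 of 6 differences positive. Skeletal muscle sums were 28878 to 69807 in the double-null pools and 47823 to 57098 in the wildtype pools. Cartilage sums were 12018 to 13605 in the double-null pools and 9062 to 17530 in the wildtype pools. Pools of the same group thus differed widely in these sums, and the part of this in the differences was not tested.

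**Figure D5:**
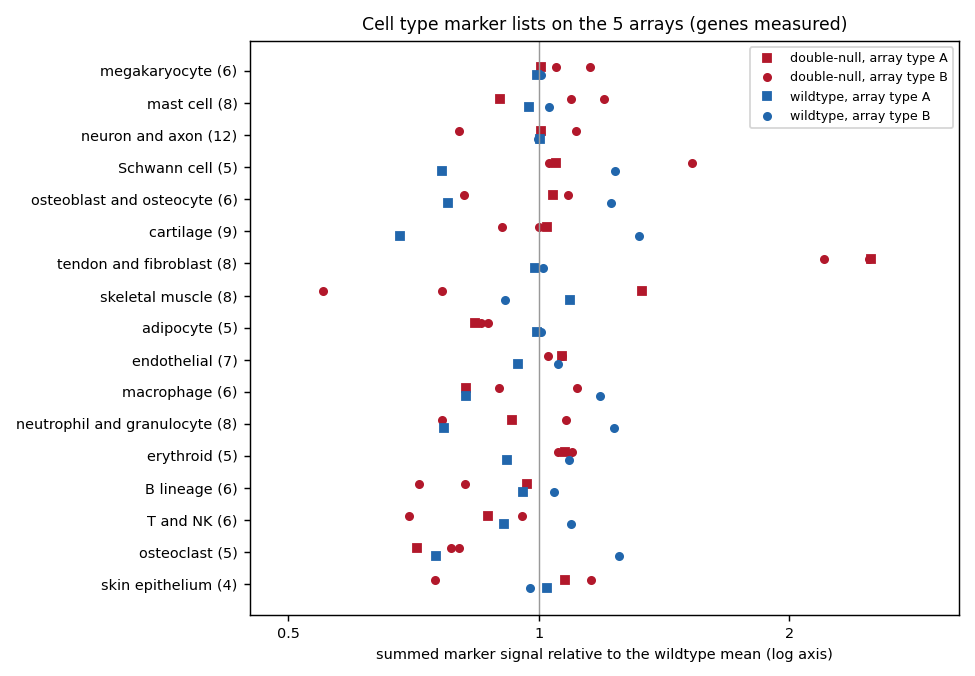
Summed signal of each cell type marker list relative to the mean of the 2 wildtype pools (horizontal log axis) in 3 double-null pools (red) and 2 wildtype pools (blue), with squares for array type A and circles for array type B and the number of measured genes in brackets. The tendon and fibroblast list lies far to the right in all double-null pools, and the adipocyte list lies to the left. The megakaryocyte list lies to the right, in its lowest double-null pool only just, and the neuron, mast cell and bone lists overlap.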

How the data were processed

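The deposited values are signal intensities per probe set, which the submitters' processing notes trace to MAS5 (version not given in the sources used here). On each array the 2% trimmed mean was 250.1. Probe sets were named from the platform annotation (20393 with 1 symbol, 691 with several, 1606 with none, of 22690), and 20364 symbols were brought up to date by Entrez number (gene table of GRCm38.p6).

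Signals were taken as log2(signal + 32), quantile normalised over the 5 arrays and fitted with limma 3.58.1 in R 4.3.3 (eBayes with an intensity trend, array type as a term, two-sided; degrees of freedom 2 residual, 4.57 prior) over all 22626 probe sets other than the 64 controls, without a filter, Benjamini-Hochberg adjusted, threshold 0.05. Intervals are at 95% and, like SE, come from this fit. An exact permutation test of 3 against 2 pools cannot go below 0.1. A pathway gene is represented by its brightest probe set. The text names every probe set of the 8 genes, Bgn and Epyc as a check, the 3 genes of smallest p in each list, and the 3 genes nearest in profile to Pam and to Npy; marker genes and any other genes are named outside this rule, after their values were seen. Members and lists were chosen with earlier results of these data known. On simulated data for this comparison of 22626 probe sets, in 5 draws, 100 probe sets were changed at each size. A log2 change of 1 was recovered for 72% and a change of 2 for 99.8% of them. Each draw had 12 false calls on average. The measured data gave only 6 calls in 22626 probe sets, and Epyc at -1.64 did not pass. With so few calls the adjusted threshold is stricter, so these shares do not give the recovery in the measured data. Alternatives were other scalings, pseudocounts, filters, terms and left-out pools.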

Additional observations from a re-analysis of the deposited data

How the results depend on the processing

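Over 15 alternatives the log2 difference of Pam kept its direction and ran from -1.51 to -1.03, and that of Npy from 0.76 to 1.06. Without 1 pool they ran from -1.51 to -1.05 and from 0.81 to 1.06. Pam and Npy were chosen on this contrast and their groups did not overlap, so nothing is read from the kept direction. Cpe 1415949_at ran from 0.29 to 0.40. Furin ran from -0.66 to 0.22, and was positive only without wildtype pool 1. Cpd 1418018_at ran from -0.66 to 0.47, 1418019_at from -0.45 to 0.60 and 1455009_at from -0.23 to 0.51, Pcsk5 1438248_at from -0.36 to 0.63 and 1424605_at from -0.02 to 0.56, so these 5 probe sets have no settled direction. The fit without wildtype pool 2, or without pool 3 of the double-nulls, keeps only the contrast of array type B, and the fit without wildtype pool 1 that of array type A, so these are not separate checks. Pathway genes past the threshold stayed at 0 under every alternative. Without 1 pool the list medians ran from -0.02 to 0.36 for copper and ascorbate supply, 0.09 to 0.48 for granule proteins, 0.03 to 0.14 for metallocarboxypeptidases (lowest without double-null pool 1), 0.04 to 0.16 for trimming enzymes (likewise), -0.27 to -0.06 for precursors without amide (nearest 0 likewise) and -0.13 to -0.10 for amidated precursors. Those of other convertases (-0.15 to 0.16), convertase substrates (-0.18 to 0.36), other neuropeptide Y receptors (-0.08 to 0.10) and receptors of amidated peptides (-0.09 to 0.01) have no settled direction.

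Of all probe sets 1 passed with double-null higher and 5 with double-null lower. The count higher was 2 with deposited scaling, median centring, a pseudocount of 1 or no array type term, 8 with a filter at the 40th percentile, 6 with 1 probe set a gene and 0 on array type B alone. The count lower was 10 with the filter, 3 with 1 probe set a gene, 0 on array type B alone and 2 with a replicate block in place of array type. Without 1 pool the counts ran from 0 to 3 and from 0 to 5. The cause of these moves was not tested, apart from fewer arrays or probe sets being fitted. The replicate block gave 1 probe set higher. The deviations of same-numbered pools correlated at 0.0074 and -0.11 across probe sets. With 2 wildtype pools the deviations of 1 mirror those of the other. These correlations therefore cannot show whether same-numbered pools share more than a number. Of 441 values under alternatives 63 moved by more than the spread used as a limit, and 0 calls changed direction. Of the 17 probe sets of the 8 genes 0 passed in the main fit, so little can be read from that last count. Differences that did not pass changed sign on Furin and on the Cpd and Pcsk5 probe sets named above.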
